A study of Mus musculus with 9 samples.

Results

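The 31 genes described here encode enzymes that make purine and pyrimidine nucleotides from small precursors or recover them from free bases and nucleosides, together with the kinases and folate enzymes that serve them. They were taken by gene name from a list of such enzymes. All 31 were found among the 53077 genes of the tables, and all 31 passed the filter on low counts that left 13834 genes to test. The cells were 5TGM1, a mouse multiple myeloma line, engineered with a lentivirus to express Cas9, so every population carried Cas9. The control population received a guide RNA (gRNA) against the *Rosa26* locus. A second population received a gRNA against *Slc2a1*, which encodes the glucose transporter GLUT1. The third population, here called the 5-gRNA population, first received gRNAs against *Slc2a3*, *Slc2a5*, *Slc2a6* and *Slc2a8*, was sorted on fluorescent reporters and expanded, and then received the *Slc2a1* gRNA. These were pooled, drug-selected cultures and not clones, so edited and unedited cells were measured together. Each population had 3 biological replicates, measured by RNA sequencing. Because whole cultures were measured, fewer cells expressing a gene and less RNA per cell cannot be told apart. Sorting and expansion are described for the 5-gRNA population alone, so in its comparisons they cannot be told apart from the added gRNAs.

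Estimated counts per library lay between 21838805 and 30537105, and mitochondrial genes took between 4.84% and 11.1% of them. The plasma cell genes *Xbp1*, *Irf4*, *Sdc1* and *Prdm1* were expressed, and 7 of the 9 plasma cell markers exceeded a mean of 1 TPM (a share of the library corrected for transcript length) in each population, but *Cd38* and *Tnfrsf17* did not. The marker *Jchain*, of the antibody joining chain, had scaled counts of 1979, 1874 and 1688 in control, 763, 556 and 879 with the *Slc2a1* gRNA and 3203, 3032 and 2122 with 5 gRNAs. It fell by 1.33 (adjusted p = 0.0053) and rose by 0.59 (adjusted p = 0.035) on the log2 scale against control, and the gRNA populations differed by 1.92 (adjusted p = 0.00022). None of the 6 T cell, 5 myeloid or 4 erythroid markers reached a mean of 1 TPM in any population. Of 5 stromal and endothelial markers, *Pecam1* did, with a mean of 4.10 TPM in control and 1.81 TPM with 5 gRNAs. Of the 4 epithelial markers only *Epcam* did, and the summed level of that list lay between 266 and 323 TPM in control, between 125 and 163 TPM with the *Slc2a1* gRNA and between 89.2 and 123 TPM with 5 gRNAs. The part of these differences in the results below was not tested. The targeted *Slc2a1* stood at 59.5, 26.9 and 32.9 TPM in control, 37.1, 28.3 and 31.4 TPM with the *Slc2a1* gRNA and 24.1, 31.5 and 19.1 TPM with 5 gRNAs. Its counts moved by -0.21 (adjusted p = 0.544) with the *Slc2a1* gRNA on the log2 scale, which is no call, and by -0.66 (adjusted p = 0.029) with 5 gRNAs. With 5 gRNAs *Slc2a8* and *Slc2a6* fell by 1.22 and 0.67 on the log2 scale, *Slc2a5*, at 0.40 TPM or less in control, rose by 2.65, and *Slc2a3* had 0.27 (adjusted p = 0.26). A gRNA can disrupt the protein and leave the RNA in place, so these levels are no measure of editing.

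De novo purine synthesis builds the purine ring step by step on phosphoribosyl pyrophosphate (PRPP), a sugar phosphate made from ribose, until inosine monophosphate (IMP) is reached, from which adenine and guanine nucleotides branch off. De novo pyrimidine synthesis makes the ring first and then joins it to PRPP. Salvage enzymes reattach recovered bases to PRPP or phosphorylate recovered nucleosides, and folate carries the one-carbon units that the purine ring and thymidylate need. Dividing tumour cells, myeloma cells among them, depend on a steady nucleotide supply.

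The promoters of 4 members are shown first because *Ppat* and *Paics* lie head to head and had unlike counts in the 5-gRNA population, and because *Atic* and *Nme1* hold a sequence bound by Myc proteins close to their start. The windows run from 250 bases before to 50 bases after the gene start and come from RefSeq on GRCm38.p6, where 29 of the 31 members had at least 1 window. They are chr5:76951529-76951828 on the minus strand for *Ppat*, chr5:76951052-76951351 on the plus strand for *Paics*, chr1:71556906-71557205 on the plus strand for *Atic* and chr11:93968223-93968522 on the minus strand for *Nme1*, one of its 2 windows. Capitals mark the E-box CACGTG and matches to the E2F motifs TTTCCCGC, TTTCGCGC, TTTGCCGC and TTTGGCGC, read on both strands.
Ppat: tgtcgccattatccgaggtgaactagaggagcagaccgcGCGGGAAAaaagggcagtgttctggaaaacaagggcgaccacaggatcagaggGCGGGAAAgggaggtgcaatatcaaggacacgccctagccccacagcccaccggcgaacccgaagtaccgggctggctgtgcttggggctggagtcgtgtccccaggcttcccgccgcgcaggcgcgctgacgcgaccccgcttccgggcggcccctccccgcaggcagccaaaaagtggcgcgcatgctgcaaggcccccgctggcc
Paics: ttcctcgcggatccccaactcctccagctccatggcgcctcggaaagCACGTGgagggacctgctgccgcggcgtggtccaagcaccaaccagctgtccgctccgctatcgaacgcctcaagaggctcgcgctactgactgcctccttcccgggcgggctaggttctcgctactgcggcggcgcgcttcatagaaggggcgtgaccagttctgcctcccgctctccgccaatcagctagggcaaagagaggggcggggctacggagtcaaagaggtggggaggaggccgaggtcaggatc
Atic: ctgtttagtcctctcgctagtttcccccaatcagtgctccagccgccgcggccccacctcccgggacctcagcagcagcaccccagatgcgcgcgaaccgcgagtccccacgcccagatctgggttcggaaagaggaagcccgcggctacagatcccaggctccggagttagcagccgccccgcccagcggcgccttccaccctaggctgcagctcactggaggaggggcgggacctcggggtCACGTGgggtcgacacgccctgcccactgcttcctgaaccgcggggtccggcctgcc
Nme1: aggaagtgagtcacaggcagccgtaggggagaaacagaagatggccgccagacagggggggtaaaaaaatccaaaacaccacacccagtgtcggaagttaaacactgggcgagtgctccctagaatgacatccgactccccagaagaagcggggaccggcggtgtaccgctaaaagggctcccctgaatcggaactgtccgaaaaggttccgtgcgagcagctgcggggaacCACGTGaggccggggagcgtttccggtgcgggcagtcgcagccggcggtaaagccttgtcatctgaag

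The E-box stood in the windows of 5 of the 29 members (17.2%), against 8.09% of the 27025 genes with a window. Those members were *Atic*, *Dtymk*, *Impdh2*, *Nme1* and *Paics*. The E-box stood in 2 of the 9 members with a window that rose against control, and in 3 of the 20 others. The 27025 genes were not limited to those that passed the filter on low counts, as all members did. In *Atic* its first base lay 7 bases before the start, in the *Nme1* window above 18 bases and in *Paics* 203 bases. An E2F motif stood in 2 of 29 members, against 2.6% of all genes, and the *Ppat* window held it 2 times as GCGGGAAA on the strand shown. The ATF4 half-site TGATGNAA was found in 1 of 29 members, against 4.51% of all genes. The CCAAT box, which can overlap the other motifs, was found in 41.4% of members and 41.1% of all genes. A match says that the letters are present in the window and no more.

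In control cells the 5 most abundant transcripts of this set included 2 of salvage, and the levels of the 31 spanned a wide range. *Nme2*, a nucleoside diphosphate kinase, stood at 381 ± 21.1 TPM (SD, n = 3). *Aprt*, which salvages adenine, followed at 170 ± 13.4 TPM. *Paics*, which carries out 2 steps of the purine ring pathway, stood at 138 ± 11.3 TPM. *Hprt*, which salvages hypoxanthine and guanine, stood at 116 ± 1.55 TPM and *Impdh2*, the main IMP dehydrogenase of proliferating cells, at 99.9 ± 7.65 TPM. These 5 differed from their neighbours in the order by more than the larger SD of each pair. Lower down the order blurred, and 17 of the 30 neighbouring pairs differed by less than the larger of their SDs. From *Mthfd1* (21.1 ± 3.12 TPM) through *Shmt1*, *Ppat*, *Umps* and *Uck1* to *Cad* (18.9 ± 4.89 TPM), no neighbours could be separated.

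At the bottom, *Pfas* stood at 9.64 ± 1.15 TPM and *Dctd*, the dCMP deaminase that feeds thymidylate synthesis, at 1.76 ± 0.22 TPM. All 31 members had a mean of at least 1 TPM in control cells, and 30 had at least 5 TPM, with *Dctd* the exception. Within the purine ring pathway the levels spanned from *Pfas* to *Paics*, with *Gart* at 49.0 ± 2.84 TPM, *Adsl* at 46.6 ± 3.55 TPM, *Atic* at 38.8 ± 5.83 TPM and *Ppat*, the committed first step, at 19.8 ± 3.22 TPM. The de novo pyrimidine genes lay in a narrower band, from *Dhodh* at 12.7 ± 1.53 TPM to *Ctps2* at 34.2 ± 9.70 TPM. Between paralogs, *Prps1* at 56.0 ± 1.24 TPM exceeded *Prps2* at 13.8 ± 2.99 TPM, *Impdh2* exceeded *Impdh1* at 37.4 ± 5.84 TPM, *Uck2* at 86.5 ± 11.9 TPM exceeded *Uck1* at 19.1 ± 3.82 TPM, and *Nme2* exceeded *Nme1* at 65.4 ± 3.28 TPM. *Ctps* at 30.7 ± 2.64 TPM and *Ctps2* did not differ beyond their spread. The annotated transcripts of these pairs shared no run of 31 bases, except *Uck1* and *Uck2*, which shared 4.

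**Figure D1:**
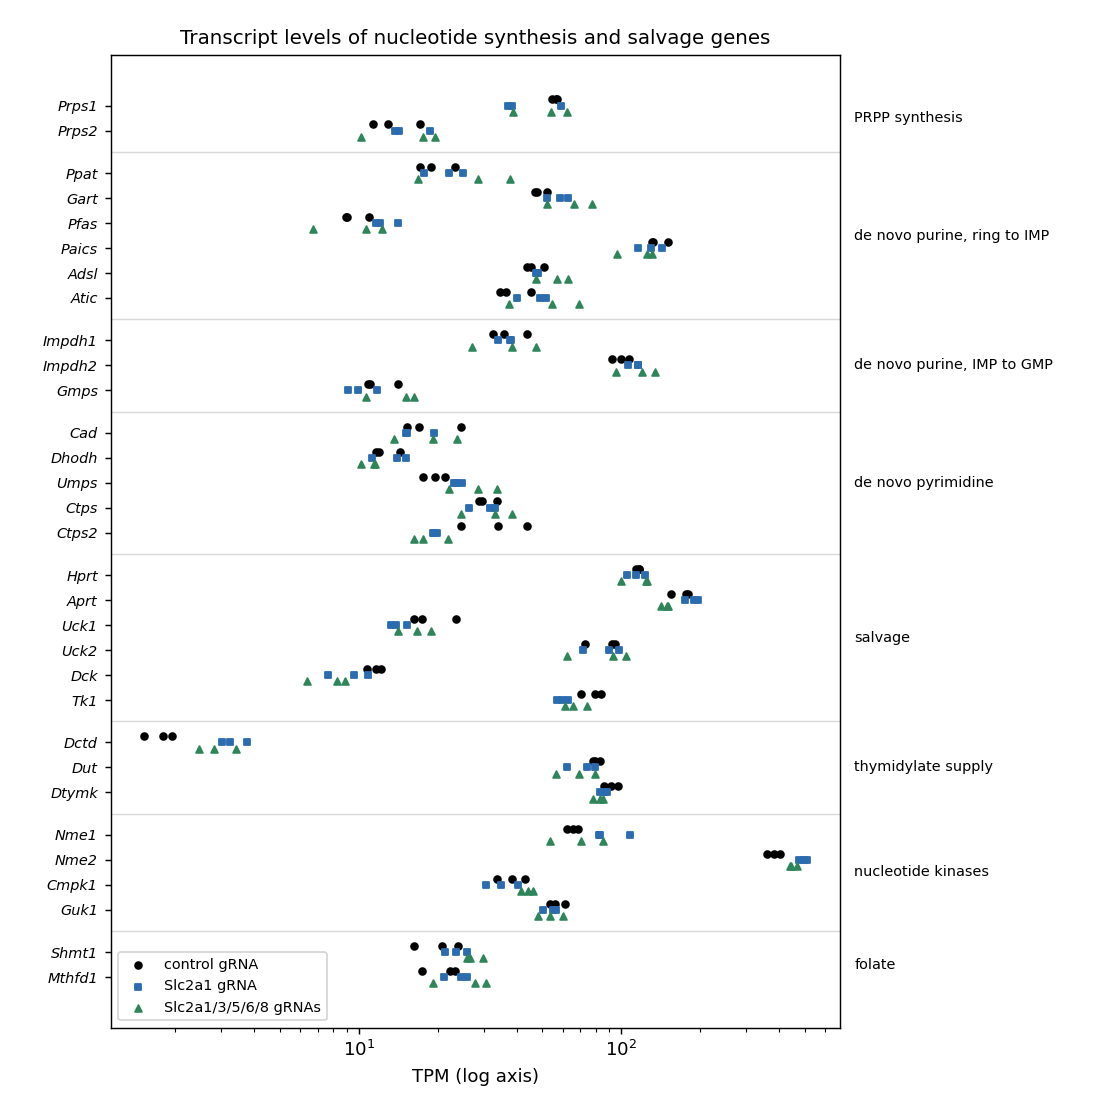
Level of each of the 31 genes in each replicate, in TPM on a log axis, grouped by role, with control as circles, *Slc2a1* gRNA as squares and 5 gRNAs as triangles. In control, *Nme2* is at the top with 381 TPM and *Dctd* at the bottom with 1.76 TPM.

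With the *Slc2a1* gRNA, 7 of the 31 genes rose against control and 0 fell in edgeR. They were *Gart* and *Pfas* of the purine ring pathway, *Umps* of pyrimidine synthesis, *Dctd* of thymidylate supply, the nucleoside diphosphate kinases *Nme1* and *Nme2*, and the folate enzyme *Shmt1*. Their fold changes lay between 1.35 for *Gart* and 2.76 for *Dctd*. Among all 13834 genes tested, 2.25% rose and 2.39% fell in this comparison. The log2 fold change was positive for 24 of the 31 genes and negative for 7, with a median of 0.13 against -0.0013 over all genes. The counts by sign moved with the scaling, to 18 positive and 13 negative with total count normalization (median 0.03 against -0.10). In limma on log2(TPM + 1) they were 15 and 16 (median -0.0042 against -0.11). In both fits the median of all genes moved down too, and that of the members stayed above it. In the edgeR fit, at an unadjusted p under 0.05 there were 12 higher and 1 lower, *Ctps2*. Counts at an unadjusted p, here and below, stand without the share of all genes at that cut. They are therefore no result about the genes counted. By scaled counts (estimated counts brought to 1 library size by TMM), 12 of the 31 had all *Slc2a1* gRNA replicates above all control replicates, as did 13.2% of all genes, and *Ctps2* and *Uck1* had all below, as did 13.0%. No call survived leaving out control replicate 1, 2 or 3 or *Slc2a1* gRNA replicate 1 or 2, each of which gave 0 called members, while calls over all genes dropped from 642 to between 11 and 72. The 7 calls were also lost in limma on log2(TPM + 1) (0 called, 6 at an unadjusted p under 0.05), which called 0 of all genes, and in edgeR with Salmon's transcript lengths as an offset (0 called, 13 at an unadjusted p under 0.05), which called 165 of all genes (1.19%), a fit chosen after seeing the data.

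With 5 gRNAs, 7 of the 31 genes rose and 1 fell against the same control samples. Those that rose were *Ppat*, *Gart* and *Atic* of the purine ring pathway, *Umps*, *Dctd*, and both folate enzymes *Shmt1* and *Mthfd1*. The gene that fell was *Dck*, which salvages deoxycytidine and other deoxynucleosides. This comparison called more genes in all, 8.49% higher and 7.44% lower, so 7 of 31 is to be read against that share. The log2 fold change was positive for 23 members and negative for 8, with a median of 0.19 against 0.0072 over all genes. In limma on log2(TPM + 1) it was positive for 16 and negative for 15, with a median of 0.0031 against -0.05. In scaled counts 10 members had all 5-gRNA replicates above all control replicates, as did 17.0% of all genes, and *Ctps2*, *Dck* and *Paics* had all below, as did 17.2%. Leaving out control replicate 1 or 3 gave 0 called members, leaving out control replicate 2 gave 3 (*Gart*, *Ppat* and *Umps*) and leaving out 5-gRNA replicate 3 gave 1 (*Umps*), while calls over all genes fell from 2204 to between 631 and 994. In limma on log2(TPM + 1) 0 members were called and 8 had an unadjusted p under 0.05, where 3.13% of all genes were called against 15.9% in edgeR.

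**Figure D2:**
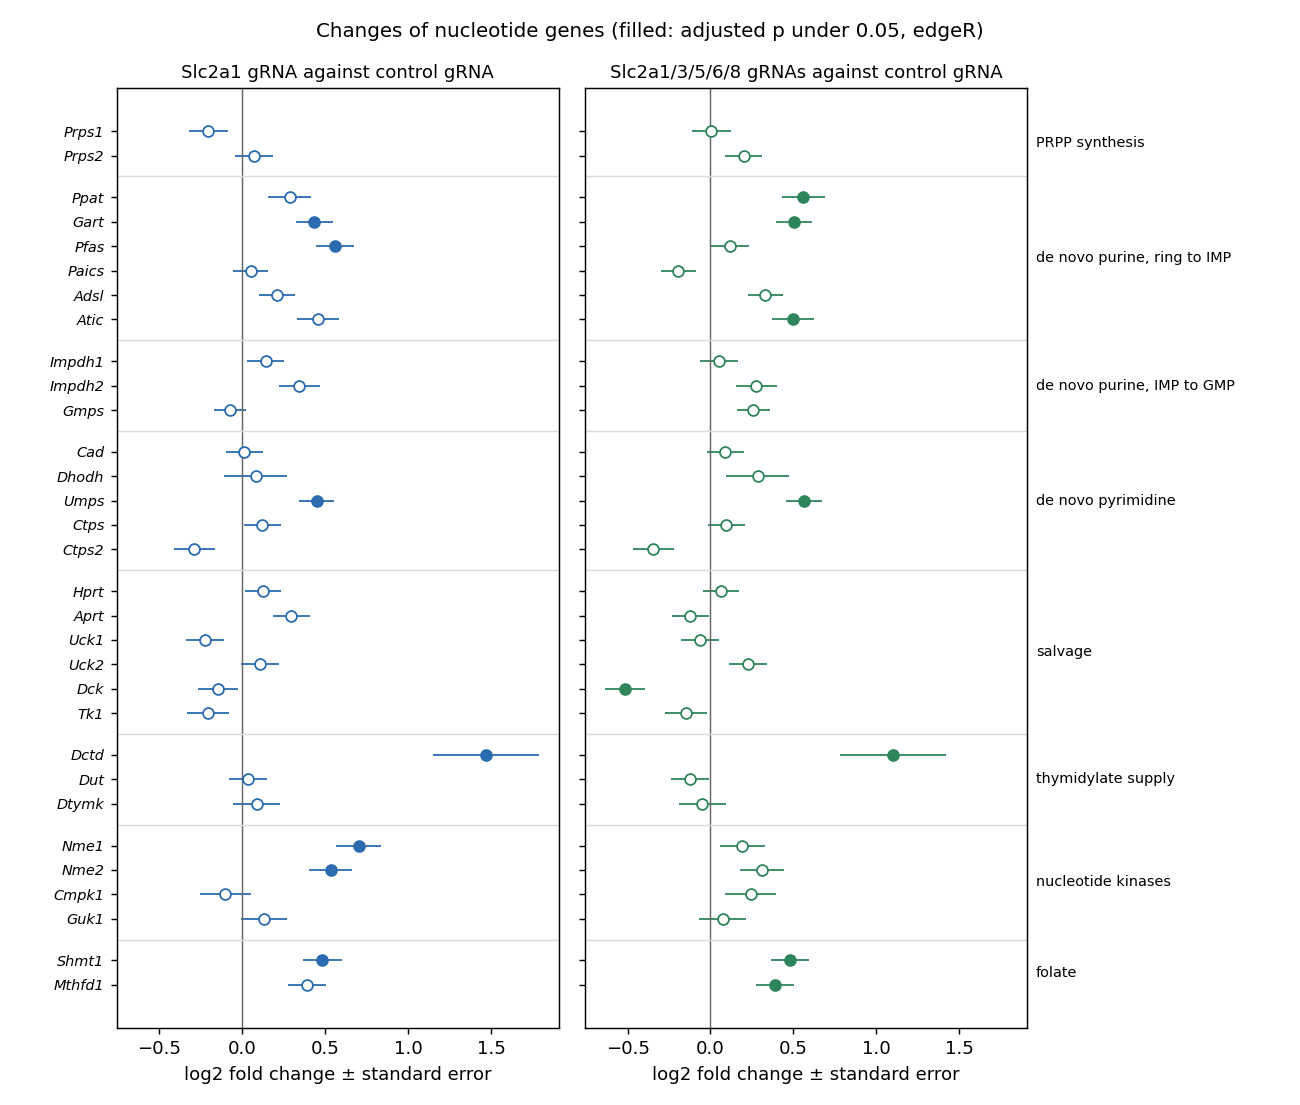
Log2 fold change of each gene against control with its standard error, for the *Slc2a1* gRNA (left) and 5 gRNAs (right), filled where the adjusted p was under 0.05. *Dctd* lies farthest right in both panels, at 1.47 and 1.10, and the purine ring genes *Gart* and *Atic* lie near 0.5 on the right.

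*Ppat*, the amidotransferase that commits PRPP to purine synthesis, had scaled counts of 1718, 2116 and 2089 in control, 2477, 2193 and 2515 with the *Slc2a1* gRNA and 2340, 2830 and 3646 with 5 gRNAs. Control lay below both other populations in every replicate, and 5-gRNA replicate 3 was the highest library. The log2 fold change was 0.56 (SE 0.13, adjusted p = 0.014) with 5 gRNAs and 0.29 (adjusted p = 0.22) with the *Slc2a1* gRNA. *Gart*, a trifunctional enzyme of the ring pathway, had 3608, 3579 and 3514 in control, 5279, 4615 and 4578 with the *Slc2a1* gRNA and 4807, 4904 and 5447 with 5 gRNAs. The control replicates were close together and no replicate of the other populations reached them. *Gart* rose by 0.43 (SE 0.11, adjusted p = 0.043) with the *Slc2a1* gRNA and by 0.50 (SE 0.11, adjusted p = 0.010) with 5 gRNAs on the log2 scale. Of its exonic bases, 19.7% are also covered by *Gm15964* on the other strand.

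*Pfas*, which transfers nitrogen from glutamine in the ring pathway, had scaled counts of 1500, 1481 and 1404 in control, 2126, 2379 and 1976 with the *Slc2a1* gRNA and 1390, 1654 and 1719 with 5 gRNAs. Only the *Slc2a1* gRNA replicates stood clear of control, and all of them also stood above the 5-gRNA replicates. The log2 fold change was 0.56 (SE 0.11, adjusted p = 0.021) with the *Slc2a1* gRNA and 0.12 (adjusted p = 0.52) with 5 gRNAs. Tested directly, the 5-gRNA population differed from the *Slc2a1* gRNA population by -0.44 (SE 0.11, adjusted p = 0.067), which missed the threshold. *Atic*, which completes the ring to IMP with a folate one-carbon unit, had 2624, 2926 and 2985 in control, 4353, 3595 and 3732 with the *Slc2a1* gRNA and 3576, 3795 and 4709 with 5 gRNAs. All control replicates were lower than all others. Its log2 fold change was 0.50 (SE 0.13, adjusted p = 0.021) with 5 gRNAs and 0.46 (SE 0.13, adjusted p = 0.061) with the *Slc2a1* gRNA, where it missed the threshold. It was called there in 6 other fits, namely DESeq2, no filter, only the 2 groups compared and without *Slc2a1* gRNA replicate 3 or 5-gRNA replicate 1 or 3. Those fits each called more of all genes in this comparison, from 5.47% (no filter) through 9.85% (DESeq2) to 16.7% (only 2 groups), against 4.64%.

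*Paics*, the most abundant of the ring genes in control, did not rise. It had scaled counts of 7283, 7817 and 7134 in control, 7740, 7370 and 7905 with the *Slc2a1* gRNA and 6636, 6587 and 6203 with 5 gRNAs. The 5-gRNA replicates lay below every other library, yet the log2 fold change of -0.19 (SE 0.11, adjusted p = 0.23) against control did not pass the test. *Paics* and *Ppat* are transcribed in opposite directions from neighbouring starts on chromosome 5 (GENCODE M21, GRCm38), *Ppat* at chr5:76913249-76951578 on the minus strand and *Paics* at chr5:76951307-76967509 on the plus strand, and their gene bodies overlap by 272 bases. That overlap covers 6.15% of the exonic bases of *Ppat* and 8.67% of those of *Paics*. Of the promoters shown above, that of *Ppat* thus belongs to a gene that rose with 5 gRNAs and that of *Paics* to one whose counts lay below control. *Adsl*, which acts in the ring pathway and again on the branch to AMP, stood at 0.33 on the log2 scale (SE 0.11, adjusted p = 0.054) with 5 gRNAs, where DESeq2 and the fits without *Slc2a1* gRNA replicate 1 or 5-gRNA replicate 2 called it, and at 0.21 with the *Slc2a1* gRNA. With 5 gRNAs those fits called 20.1%, 17.7% and 12.9% of all genes in turn, against 15.9% on all 9 samples.

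**Figure D3:**
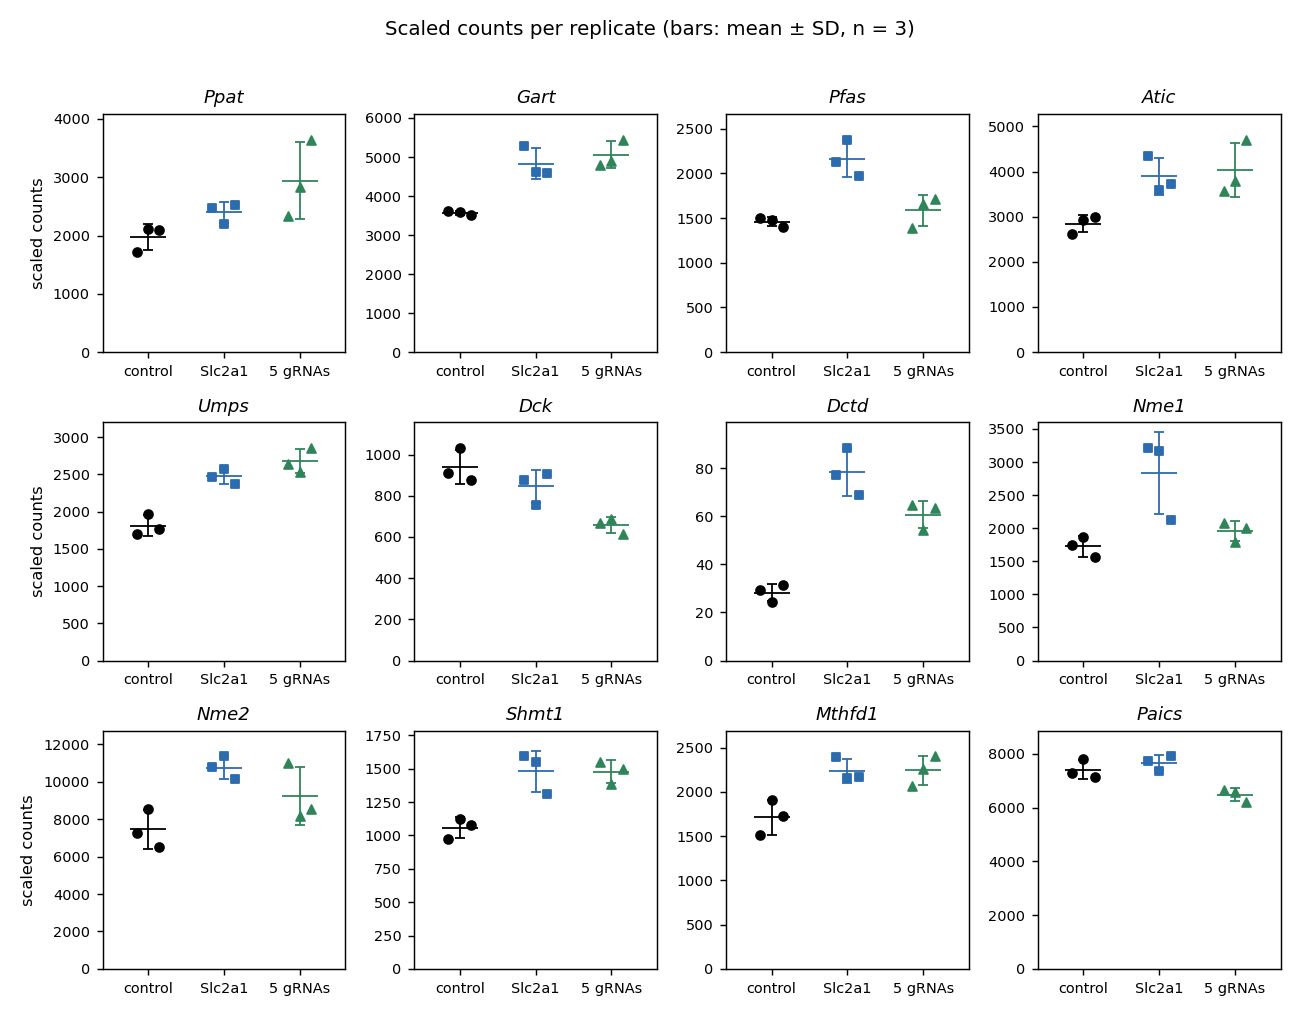
Scaled counts in each replicate for the 11 genes that passed the test in either comparison with control, and for *Paics*, with bars for the mean and SD. The control replicates of *Gart* sit between 3514 and 3608, below all replicates of the other populations, and the 5-gRNA replicates of *Dck*, between 615 and 690, lie below all control replicates.

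The genes on either side of the ring pathway did not pass the edgeR test on all 9 samples in either comparison with control. With only control and the *Slc2a1* gRNA fitted, *Impdh2* was called, in a fit that called 16.7% of all genes against 4.64%. *Prps1* and *Prps2*, which make PRPP, had log2 fold changes of 0.01 and 0.20 with 5 gRNAs. On the branch from IMP to GMP, *Impdh1*, *Impdh2* and *Gmps*, the last of which aminates XMP to GMP, had 0.05, 0.28 and 0.26. *Gmps* stood between 3141 and 3385 scaled counts with 5 gRNAs and between 2630 and 2894 in control, without overlap. Its difference from the *Slc2a1* gRNA population was 0.33 (SE 0.10, adjusted p = 0.097).

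Of the de novo pyrimidine genes, *Umps* alone passed the test. This enzyme attaches orotate to PRPP and decarboxylates it to UMP. It had scaled counts of 1701, 1971 and 1767 in control, 2466, 2578 and 2372 with the *Slc2a1* gRNA and 2645, 2531 and 2855 with 5 gRNAs. The lowest replicate of either gRNA population was above the highest control replicate, also in TPM. *Umps* rose by 0.45 (SE 0.11, adjusted p = 0.036) with the *Slc2a1* gRNA and by 0.56 (SE 0.11, adjusted p = 0.0053) with 5 gRNAs on the log2 scale. Its call was kept in 8 of 17 other fits with the *Slc2a1* gRNA and in 13 of 17 with 5 gRNAs, where the calls of the other members were kept in 7 (*Dctd* and *Mthfd1*) to 12. *Cad*, the multifunctional enzyme of the first 3 steps, had 0.09 with 5 gRNAs, *Dhodh*, the mitochondrial step between *Cad* and *Umps*, had 0.28 and *Ctps*, which makes CTP from UTP, had 0.09, with adjusted p of 0.61, 0.33 and 0.60.

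*Ctps2*, the second CTP synthase, depended on how transcript length was treated. Its scaled counts were 940, 887 and 865 in control, 681, 727 and 792 with the *Slc2a1* gRNA and 728, 800 and 598 with 5 gRNAs, so that control was highest without overlap. The log2 fold change was -0.34 (SE 0.12, adjusted p = 0.079) with 5 gRNAs and -0.29 (adjusted p = 0.20) with the *Slc2a1* gRNA. In TPM the control replicates stood at 43.9, 24.5 and 34.1, against 19.3, 19.5 and 19.9 with the *Slc2a1* gRNA and 16.3, 22.0 and 17.6 with 5 gRNAs. The mean transcript length that Salmon estimated for *Ctps2* was 968, 1429 and 1249 bases in control and 1480, 1598 and 1546 bases with 5 gRNAs. It lay between 1342 and 1623 bases with the *Slc2a1* gRNA, which overlaps control. With these lengths as an offset in edgeR, *Ctps2* fell by 0.77 (adjusted p = 0.020) on the log2 scale with 5 gRNAs. The same fit gave -0.61 (adjusted p = 0.095) with the *Slc2a1* gRNA, which is no call.

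Estimated length differed in other members too. With the *Slc2a1* gRNA, 2 of the 29 members with variable length (*Dctd* and *Dtymk*) had all replicates longer than all control replicates, against 7.71% of genes, and 3 (*Cmpk1*, *Dhodh* and *Prps2*) had all shorter, against 4.79%. With 5 gRNAs, 7 of the 29 were longer in this sense, against 11.7% of genes, and 0 were shorter, against 4.44%. The 7 were *Ctps2*, *Dctd*, *Dhodh*, *Dtymk*, *Mthfd1*, *Ppat* and *Uck2*. *Dhodh* had a mean length of 1396 ± 32.0 bases in control, 1275 ± 83.7 bases with the *Slc2a1* gRNA and 1752 ± 95.7 bases with 5 gRNAs (SD, n = 3 each). Its log2 fold change with 5 gRNAs was 0.28 on counts and -0.09 with the length offset. These lengths are averages over the annotated transcripts of a gene weighted by their estimated abundance, and no single transcript was measured.

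**Figure D4:**
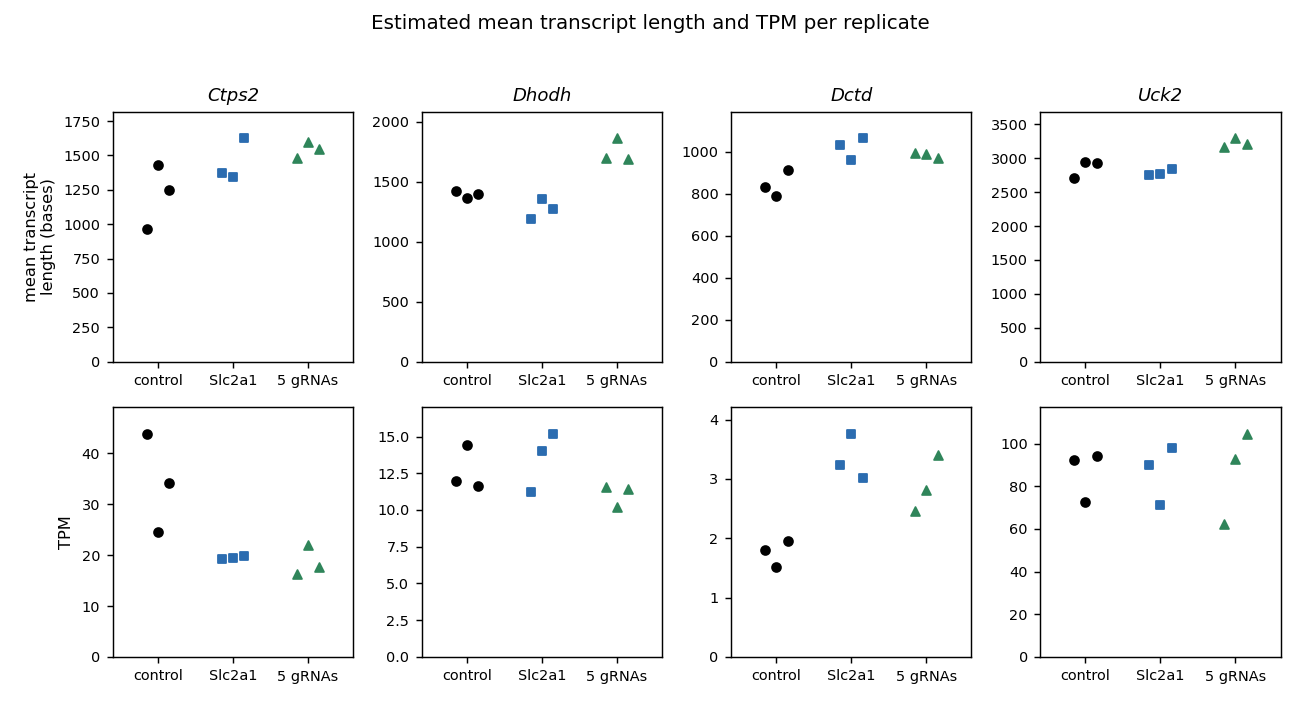
Mean transcript length in bases (top) and TPM (bottom) per replicate for *Ctps2*, *Dhodh*, *Dctd* and *Uck2*, both from the deposited tables. *Dhodh* averages 1396 bases in control and 1752 bases with 5 gRNAs, and the TPM of *Ctps2* is at or below 22.0 in both gRNA populations and at least 24.5 in control.

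Salvage genes included the 1 member that fell. *Dck*, the deoxycytidine kinase, had scaled counts of 909, 1033 and 877 in control, 877, 755 and 907 with the *Slc2a1* gRNA and 668, 690 and 615 with 5 gRNAs. The 5-gRNA replicates were below all 6 others, and the *Slc2a1* gRNA replicates overlapped control. *Dck* fell by 0.51 (SE 0.12, adjusted p = 0.014) on the log2 scale with 5 gRNAs and had -0.15 (adjusted p = 0.51) with the *Slc2a1* gRNA, and the difference between the gRNA populations was -0.37 (adjusted p = 0.12). The other 5 salvage genes did not pass the edgeR test on all 9 samples. With 5 gRNAs *Hprt* had a log2 fold change of 0.06, *Aprt* of -0.12, the uridine-cytidine kinases *Uck1* and *Uck2* of -0.06 and 0.22, and the thymidine kinase *Tk1* of -0.15. *Aprt* had 0.29 (adjusted p = 0.15) with the *Slc2a1* gRNA, and was called there when only those 2 groups were fitted, as were 16.7% of all genes.

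*Dctd* had the largest fold change of the 31 in both comparisons and the fewest reads. Its scaled counts were 29, 24 and 31 in control, 77, 88 and 69 with the *Slc2a1* gRNA and 65, 54 and 63 with 5 gRNAs. Control was lowest without overlap in counts and in TPM. *Dctd* rose by 1.47 (SE 0.32, adjusted p = 0.027) with the *Slc2a1* gRNA and by 1.10 (SE 0.32, adjusted p = 0.036) with 5 gRNAs on the log2 scale, and its standard error exceeded that of every other member. With the length offset the values were 1.08 (adjusted p = 0.13) and 0.79 (adjusted p = 0.17), and over all other fits they went down to 0.65 and 0.49, both in limma on log2(TPM + 1). *Dut*, which hydrolyses dUTP, and *Dtymk*, the thymidylate kinase, had -0.12 and -0.05 with 5 gRNAs.

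The nucleoside diphosphate kinases add the last phosphate to nucleotides other than ATP. *Nme1* had scaled counts of 1747, 1864 and 1561 in control, 3213, 3165 and 2120 with the *Slc2a1* gRNA and 2076, 1787 and 2008 with 5 gRNAs. Replicates 1 and 2 of the *Slc2a1* gRNA population were far above the rest and replicate 3 was nearer to the 5-gRNA values. *Nme1* rose by 0.70 (SE 0.14, adjusted p = 0.018) with the *Slc2a1* gRNA on the log2 scale and had 0.19 (adjusted p = 0.36) with 5 gRNAs. *Nme2* had 7265, 8562 and 6537 in control, 10774, 11364 and 10124 with the *Slc2a1* gRNA and 10997, 8168 and 8570 with 5 gRNAs. It rose by 0.53 (SE 0.13, adjusted p = 0.041) with the *Slc2a1* gRNA and had 0.31 (adjusted p = 0.13) with 5 gRNAs, where 1 replicate lay below the highest control replicate and where it was called without 5-gRNA replicate 2. The call of *Nme2* was lost without *Slc2a1* gRNA replicate 3, where that of *Nme1* was kept.

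*Nme1* and *Nme2* are neighbours on chromosome 11, and the annotated readthrough gene *Gm20390* joins them. Of the 31-base runs of *Gm20390*, 40.6% occur in *Nme1* and 56.8% in *Nme2*, so its reads cannot be cleanly divided from theirs. *Gm20390* itself rose by 1.17 (SE 0.14, adjusted p = 0.0040) with the *Slc2a1* gRNA. The sum of the 3 genes rose by 0.59 (SE 0.13, adjusted p = 0.026) with the *Slc2a1* gRNA and had 0.29 (adjusted p = 0.14) with 5 gRNAs. The sum was added after seeing the data. The other kinases *Cmpk1*, for UMP and CMP, and *Guk1*, for GMP, had 0.24 and 0.07 with 5 gRNAs, with adjusted p of 0.30 and 0.76.

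Both folate enzymes of the set rose with 5 gRNAs, where 8.49% of all genes did. *Shmt1*, the cytosolic serine hydroxymethyltransferase that loads one-carbon units onto folate, had scaled counts of 970, 1125 and 1081 in control, 1594, 1548 and 1308 with the *Slc2a1* gRNA and 1549, 1383 and 1499 with 5 gRNAs. *Mthfd1*, which interconverts the cytosolic folates used for the purine ring, had 1507, 1903 and 1733 in control, 2390, 2153 and 2166 with the *Slc2a1* gRNA and 2069, 2259 and 2402 with 5 gRNAs. For both genes every gRNA replicate was above every control replicate. *Shmt1* rose by 0.48 in both populations (SE 0.12 each), with adjusted p of 0.036 with the *Slc2a1* gRNA and 0.017 with 5 gRNAs. Of 17 other fits, 8 kept its call with the *Slc2a1* gRNA. Over all 17 its value there went down to 0.22, and the length offset gave 0.40 (adjusted p = 0.20). *Mthfd1* had a log2 fold change of 0.39 (SE 0.12) in both, with adjusted p of 0.075 and 0.039, so that on all 9 samples it passed the edgeR test with 5 gRNAs alone. With the *Slc2a1* gRNA it was called in 4 other fits, namely DESeq2, no filter, only the 2 groups compared and without 5-gRNA replicate 1. These called 9.85%, 5.47%, 16.7% and 8.88% of all genes in turn, against 4.64% on all 9 samples. With the length offset neither was called with 5 gRNAs, at 0.53 (adjusted p = 0.056) for *Shmt1* and 0.36 (adjusted p = 0.11) for *Mthfd1*, where calls over all genes fell from 2204 to 1323, and of 17 other fits 10 kept the call of *Shmt1* and 7 that of *Mthfd1*. Both comparisons use the same control replicates, and the direct difference between the gRNA populations was 0.00 for each gene (SE 0.12).

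When the gRNA populations were set against each other, 0 of 31 members passed the edgeR test, against 2.31% of all genes, and 7 had an unadjusted p under 0.05. The closest were *Pfas* (given above), *Nme1* with -0.51 (SE 0.14, adjusted p = 0.073) and *Aprt* with -0.42 (SE 0.11, adjusted p = 0.076), each lower with 5 gRNAs, and *Gmps*, higher. DESeq2 called these 4, among 2.93% of all genes, and edgeR with no filter on low counts called *Aprt*, *Nme1* and *Pfas*, among 3.68%. In edgeR, *Nme1* was called without *Slc2a1* gRNA replicate 3, among 0.886% of all genes. *Nme1* and *Pfas* were called without 5-gRNA replicate 3, among 2.32%. A call in 1 comparison with control and not in the other is therefore not shown to be a difference between the gRNA populations.

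TPM differ from scaled counts both in the length correction and in lacking the TMM scaling. In TPM, *Dctd*, *Nme1*, *Nme2*, *Pfas* and *Umps* stood above control without overlap with the *Slc2a1* gRNA, where 4.58% of all genes did, and *Ctps2*, *Tk1* and *Uck1* stood below, where 17.8% did. With 5 gRNAs *Dctd*, *Nme2*, *Shmt1* and *Umps* did, where 5.96% of all genes did, and *Aprt*, *Ctps2*, *Dck*, *Dhodh* and *Dtymk* stood below, where 16.7% did. *Gart* had 47.8, 46.9 and 52.2 TPM in control, 62.8, 52.0 and 58.4 TPM with the *Slc2a1* gRNA and 52.2, 66.2 and 77.2 TPM with 5 gRNAs. *Ppat* had 17.1, 18.9 and 23.3 TPM in control and 16.8, 28.5 and 37.6 TPM with 5 gRNAs. For both genes the lowest of the 5-gRNA values was replicate 1, the library with 11.1% mitochondrial counts, against 5.84% and 4.91% in replicates 2 and 3. TPM are shares of a library, and the part of the mitochondrial counts in these values was not tested.

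**Figure D5:**
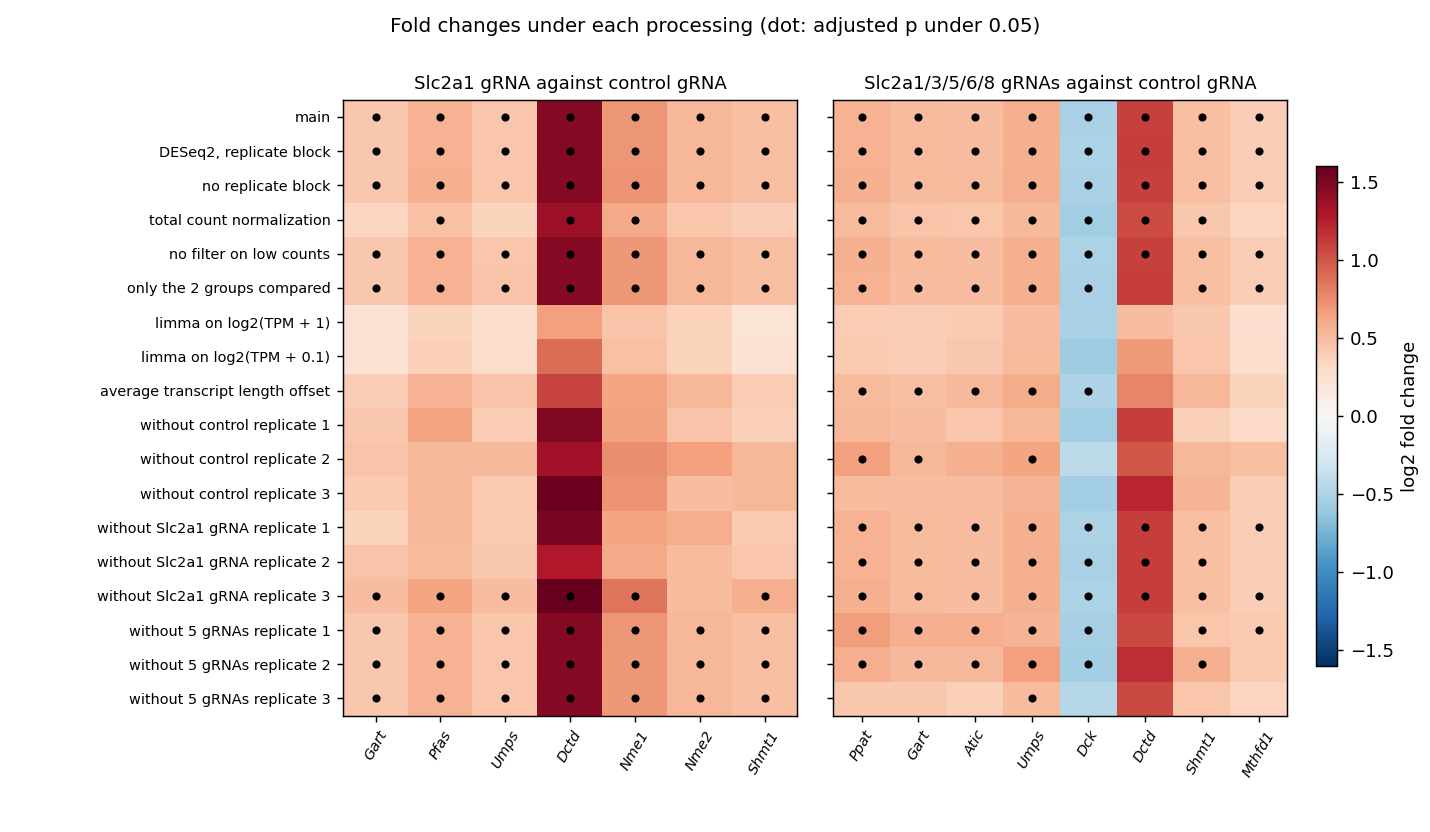
Log2 fold change (colour) of the members called in each comparison with control under 18 ways of processing the data, with a dot where the adjusted p was under 0.05. No colour changes sign, and the dots are missing throughout for limma on TPM and for every fit without control replicate 1 or 3.

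Beyond the 31, a further list of nucleotide enzymes had 39 tested genes, of which 1 rose and 3 fell with the *Slc2a1* gRNA, and 6 rose and 2 fell with 5 gRNAs. Over all genes 2.25% rose and 2.39% fell with the *Slc2a1* gRNA, and 8.49% rose and 7.44% fell with 5 gRNAs, and the counts of this list and of those that follow are to be read against these shares. *Tyms*, the thymidylate synthase, rose by 0.73 (adjusted p = 0.022) with the *Slc2a1* gRNA, where *Adssl1*, an adenylosuccinate synthase, fell by 0.92, the mitochondrial deoxyguanosine kinase *Dguok* by 0.77 and the dNTP hydrolase *Samhd1* by 0.59. With 5 gRNAs *Adss*, the adenylosuccinate synthase that opens the branch from IMP to AMP, rose by 0.47 (adjusted p = 0.0088), and the nucleotidase *Nt5c2* rose by 0.41. *Nme6*, a further member of the nucleoside diphosphate kinase family, rose by 0.54 and the PRPP synthetase-associated *Prpsap2* by 0.36. *Dguok* fell by 0.68 and *Rrm2*, a subunit of ribonucleotide reductase, by 0.53. Both comparisons share the control samples.

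Of 13 other folate genes tested, 1 rose with the *Slc2a1* gRNA and 4 with 5 gRNAs, and 0 fell in edgeR in either, also at an unadjusted p under 0.05, beside 2.25% and 8.49% of all genes that rose. *Mthfd1l*, the mitochondrial formate producer, rose by 0.74 and 0.64. With 5 gRNAs the folate carriers *Slc46a1* and *Slc25a32* rose by 0.73 and 0.44, and *Mtrr*, which reactivates methionine synthase, by 0.41. The mitochondrial one-carbon enzymes *Shmt2*, *Mthfd2* and *Aldh1l2* had 0.38, 0.21 and 0.31 with 5 gRNAs and did not pass the edgeR test on all 9 samples (adjusted p = 0.053, 0.22 and 0.20), though 6 other fits called *Shmt2* and 1 *Aldh1l2*. Of 5 nucleoside carriers tested, the equilibrative carrier *Slc29a2* rose by 1.06 (adjusted p = 0.019) with 5 gRNAs, and 0 passed the edgeR test with the *Slc2a1* gRNA, also at an unadjusted p under 0.05.

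Genes of DNA replication and cell division, which draw on the nucleotide supply, showed no rise that passed the test. Of 23 such genes, 0 rose in edgeR (0 at an unadjusted p under 0.05) and 7 fell with 5 gRNAs, where 7.44% of all genes fell. None passed the edgeR test with the *Slc2a1* gRNA, where 3 had an unadjusted p under 0.05, 1 higher and 2 lower (*Ccnb1* and *Plk1*). The mitotic kinases *Plk1* and *Aurkb* fell by 0.65 and 0.59 and *Cdk1* by 0.62 with 5 gRNAs, and the cyclins *Ccna2* and *Ccnb1* by 0.62 and 0.53. Against the *Slc2a1* gRNA population, 2 of the 23 fell with 5 gRNAs, *Aurkb* by 0.49 and *Cdk1* by 0.55, where 0.947% of all genes fell. Among 11 tested regulators of growth and the cell cycle, *Myc* rose by 0.51 (SE 0.10, adjusted p = 0.021) with the *Slc2a1* gRNA and by 0.86 (SE 0.10, adjusted p = 0.00046) with 5 gRNAs, and *E2f4* by 0.46 and 0.35. *Atf4*, *Max* and *Mnt* rose by 0.44, 0.40 and 0.41 with 5 gRNAs. Whether any of these goes with the nucleotide genes was not tested.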

How the data were processed

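RNA was extracted from 3 biological replicates of each population, copied with an oligo-dT SMART-Seq kit and sequenced as paired reads. The authors quantified reads with Salmon 1.5.1 (version per the submitters' processing notes) on Galaxy and deposited for each gene an estimated count, a TPM value, and a length and effective length. The annotation and genome build are not given in the sources used here. Coordinates come from GENCODE M21 (GRCm38), whose gene names covered 49351 of 53077.

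The deposited estimated counts, made whole by rounding, went into edgeR 4.0.16 under R 4.3.3 (quasi-likelihood test, TMM, default filter on low counts by group, replicate number as a block, all 9 samples in 1 fit), with Benjamini-Hochberg adjustment over 13834 genes and a threshold of 0.05. The block follows the paired test that the study names for its transcript data. Deviations of same-numbered samples from their group means correlated at 0.26, 0.20 and 0.38 between control and *Slc2a1* gRNA. In the 6 same-numbered pairs with the 5-gRNA population they correlated from -0.17 to 0.21. Differently numbered samples correlated from -0.34 to 0.07 between control and *Slc2a1* gRNA, and from -0.39 to 0.36 with the 5-gRNA population. Deviations from a shared group mean are not independent, so these values cannot decide whether equal numbers mark paired samples. Standard errors come from the F statistic. Deposited TPM values were used for levels and, as log2(TPM + 1) and log2(TPM + 0.1), in limma 3.58.1. Other alternatives were DESeq2 1.42.0, no block, total count normalization, no filter, only the 2 groups compared and leaving out each sample in turn. The fit with deposited transcript lengths as an offset and the sum of *Nme1*, *Nme2* and *Gm20390* were added after seeing the data. Adjusted p-values in the text come from edgeR unless limma or DESeq2 is named. The fit was also run on simulated data, but the outcome is not given here and lends no support to the calls.

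Members, roles and lists were chosen with earlier results of these data known. All 31 members are described, those past the threshold with each replicate, and up to 6 genes of smallest adjusted p are named from each other list. *Gm20390*, *Jchain*, *Shmt2*, *Mthfd2* and *Aldh1l2* were named after their values were seen. Replicates differed by more than sampling noise.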

Additional observations from a re-analysis of the deposited data

How the results depend on the processing

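The 15 calls of members against control kept their sign in all 257 refits run on them, and 143 of these kept the call. These totals include the sum of *Nme1*, *Nme2* and *Gm20390*, counted as a kept call both for *Nme1* and for *Nme2*. That sum is a different quantity from either gene. With the *Slc2a1* gRNA, 7 members were called, against 3 with total count normalization, 11 with only the 2 groups compared, 0 in limma with either pseudocount, 0 with the length offset and 0 to 9 when a sample was left out. With 5 gRNAs, 8 were called, against 0 in limma with either pseudocount and 0 to 9 when a sample was left out. Between the gRNA populations 0 were called, against 4 in DESeq2, 3 with no filter and 0 to 2 when a sample was left out. Calls over all genes moved as well. With the *Slc2a1* gRNA they were 4.64% on all 9 samples, 5.33% with total count normalization, 16.7% with only the 2 groups compared, 0% and 0.376% in limma with pseudocounts of 1 and 0.1 and 1.19% with the length offset. With 5 gRNAs they were 15.9%, against 3.13% and 3.34% in limma, and between the gRNA populations 2.31%, against 2.93% in DESeq2 and 3.68% with no filter. The cause was not tested, but a fit without a sample also has fewer samples. Total count normalization moved the median log2 fold change of all genes to -0.10 with the *Slc2a1* gRNA and limma on log2(TPM + 1) to -0.11, against -0.0013.

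Without the replicate block the same members were called, 7, 8 and 0 in the 3 comparisons.

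Some members that the edgeR test on all 9 samples did not call with 5 gRNAs changed sign in that comparison. *Prps1* had -0.045 with total count normalization, -0.14 in limma with either pseudocount and -0.067 with the length offset. In limma with pseudocounts of 1 and 0.1, *Pfas* had -0.0014 and -0.00518, *Impdh1* -0.017 and -0.018, *Cad* -0.012 and -0.013, *Dhodh* -0.18 and -0.19, *Uck2* -0.020 and -0.020, and *Guk1* -0.075 and -0.076. *Dhodh* had -0.094 with the length offset. Leaving out a sample gave values from -0.067 to 0.079 for *Prps1*, -0.036 to 0.14 for *Impdh1*, -0.0070 to 0.14 for *Hprt*, -0.18 to 0.015 for *Uck1*, -0.21 to 0.15 for *Dtymk* and -0.11 to 0.26 for *Guk1*. Counts of *Dctd* limit its precision.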
